A study of Mus musculus with 16 samples.

Results

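Claudins, occludin and the scaffold protein ZO-1 were followed at the transcript level in epithelial cells of the mouse caecum, a blind pouch between the small intestine and the colon. The 10 genes were taken from the deposited expression table by symbol: the pore-forming claudins Cldn2 and Cldn15, the sealing and other claudins Cldn3, Cldn4, Cldn7, Cldn8, Cldn12 and Cldn23, and Ocln and Tjp1. They are 10 of 24091 genes in the table, and all 10 had a mean of at least 1 TPM (transcripts scaled to a fixed total in each library) over the libraries, as did 12155 genes in all. The cells came from C57BL/6 mice that drank water with Splenda at 10 g/L for 7 days, with or without the antibiotic ampicillin at 1 g/L. On day 7 the mice received a gavage, either a mock gavage of 25% glycerol or tributyrin, a triglyceride that releases the bacterial fatty acid butyrate, and tissue was taken 6 hours later. The RNA samples fall into 3 groups of 3 libraries each: vehicle with mock gavage (vehicle), ampicillin with mock gavage (ampicillin), and ampicillin with tributyrin (tributyrin). All 3 groups thus share strain, Splenda and a gavage, the tributyrin mice carry the antibiotic as well, and a group given tributyrin without antibiotic was not among the RNA libraries. The labels give no tributyrin dose, age or sex, and whether each library is a different mouse is not stated in them. The p-values therefore reflect how far these samples differ within a group, which may be technical spread.

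Tight junctions close the gap between neighbouring epithelial cells near the lumen and set what passes between the cells. Claudins are the membrane proteins that form their strands: some, above all claudin-2 and claudin-15 in the gut, form channels for small cations and water, while others close the gap and tighten the epithelium. Occludin joins the strands as a further membrane protein, and ZO-1, the product of Tjp1, ties them to the actin cytoskeleton from inside the cell. Butyrate made by gut bacteria is a fuel of epithelial cells of the large intestine and an inhibitor of histone deacetylases, and has been linked to the tightness of the gut barrier.

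The values are TPM, which are scaled per transcript length and to the same total in every library, so that genes can be set side by side but depth is unknown. Differences were tested with limma on log2(TPM + 1), with Benjamini-Hochberg adjustment over the 12155 genes tested, and a gene was called higher or lower at an adjusted p under 0.05. Log2 fold changes are on that scale, which understates the change of genes with low values, and are given with their standard error (SE). Gene coordinates are those of RefSeq on build GRCm38.p6, the assembly that mm10 also names. With 3 libraries against 3, an exact permutation test of a single gene cannot give a two-sided p below 0.1. Epithelial markers were high in every library but moved with the groups. Their 7 genes summed to 11688 to 13230 TPM in vehicle, 9569 to 9979 TPM with ampicillin and 10796 to 11735 TPM with tributyrin. The ampicillin libraries lay below all others, and the vehicle and tributyrin ranges overlapped narrowly. Of these 7 genes, which include Epcam and Cdh1, 5 were called lower with ampicillin and 2 higher with tributyrin against ampicillin. Of all tested genes, 10.2% and 15.6% were called in those directions. The sum was thus lowest with ampicillin, as were Cldn2 and Cldn4 below, whereas Cldn8, Cldn12 and Ocln were called higher with ampicillin than with vehicle. Most of the sum came from Krt8 and Krt19, with means of 4707 and 4727 TPM in vehicle. The 2 genes called higher with tributyrin were Cdh1 and Krt18. Epcam (1391, 1177 and 1217 TPM on average) and Vil1 (536, 436 and 419 TPM) were not. Vehicle replicate 2 stood apart in Fabp6, the bile acid binding protein of the ileum, at 345 TPM. The other vehicle libraries had 12.3 and 53.4 TPM, and the 6 ampicillin and tributyrin libraries 1.84 to 4.46 TPM. Its list of 11 small intestinal genes summed to 1682 to 2352, 1610 to 1802 and 1601 to 1652 TPM in vehicle, ampicillin and tributyrin. Of 6 tested, 3 were called lower with ampicillin and 1, Rbp2, higher, where 10.2% and 11.05% of all tested genes were. Fabp2 was not called, at means of 1677, 1608 and 1549 TPM, and Alpi was higher in every vehicle library than elsewhere. Results for the members are therefore also given without vehicle replicate 2 where they moved. Other marker lists moved with the groups as well. Of 4 listed genes of the red blood cell line, 2 were in the table, Hbb-bs and Alas2. They summed to 2.88 to 8.94 TPM in the vehicle, 5.74 to 13.8 TPM in the ampicillin and 37.6 to 51.4 TPM in the tributyrin libraries. Nearly all of this was Hbb-bs, since Alas2 did not pass 0.297 TPM. The 8 genes of T cells and intraepithelial lymphocytes summed to 18.5 to 22.1 TPM in vehicle, 15.1 to 24.7 TPM with ampicillin and 27.5 to 50.0 TPM with tributyrin. The 9 genes of the crypt base summed to 119 to 133, 95.3 to 103 and 97.4 to 125 TPM in the same order. Absorptive colonocyte genes, 9 in all, summed to 37407 to 40140, 36227 to 38616 and 34722 to 35768 TPM in vehicle, ampicillin and tributyrin. Genes of that list were called in both directions in each comparison. Sums of 8 goblet genes were 10047 to 13115, 9136 to 10258 and 10125 to 11513 TPM and overlapped. Of these, Muc2 and Spink4 were called lower with ampicillin and none higher. The part of all these cells in the results was not tested, and in such bulk samples fewer cells of a type and less RNA per cell cannot be told apart.

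The promoters of Cldn2, Cldn15 and Cldn4 are shown because, of the pore-forming pair, Cldn2 was called and Cldn15 was not. Cldn4 was called in the same directions as Cldn2. Whether Cldn2 and Cldn15 differ from each other in response was not tested. Each line gives the 250 bases before the gene's start, 5' to 3' on the gene's own strand, from RefSeq on build GRCm38.p6. They lie at chrX:139800558-139800807 on the plus strand, chr5:136967619-136967868 on the plus strand and chr5:134946935-134947184 on the minus strand. Capitals mark matches, on either strand, to a TATA box (TATAAA), an element of the intestinal factor CDX (TTTATG), an AP-1 element (TGANTCA) and a GC box (GGGCGG).
Cldn2: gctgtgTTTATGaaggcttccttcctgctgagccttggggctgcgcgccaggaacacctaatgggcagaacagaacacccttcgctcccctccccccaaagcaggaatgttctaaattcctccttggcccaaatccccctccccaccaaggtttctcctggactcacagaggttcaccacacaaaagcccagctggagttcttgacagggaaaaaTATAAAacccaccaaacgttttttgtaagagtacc
Cldn15: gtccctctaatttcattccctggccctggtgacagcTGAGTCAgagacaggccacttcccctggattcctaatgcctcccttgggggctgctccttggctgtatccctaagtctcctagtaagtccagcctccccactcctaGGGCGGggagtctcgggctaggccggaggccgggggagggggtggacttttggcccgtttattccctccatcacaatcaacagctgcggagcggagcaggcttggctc
Cldn4: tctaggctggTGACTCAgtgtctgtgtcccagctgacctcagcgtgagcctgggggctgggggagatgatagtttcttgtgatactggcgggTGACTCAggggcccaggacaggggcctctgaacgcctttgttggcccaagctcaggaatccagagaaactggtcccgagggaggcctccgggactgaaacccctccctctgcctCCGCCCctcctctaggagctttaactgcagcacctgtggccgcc
The Cldn2 window held a TATA box that begins 35 bases before the start and a CDX element 244 bases before it, and no GC box. The Cldn15 window held an AP-1 element 214 bases and a GC box 108 bases before the start. In the Cldn4 window, AP-1 elements lay 240 and 158 bases before the start, and a GC box on the opposite strand 44 bases before it. No capitals overlapped. Over 32851 promoter windows of the same length, 12.4% held the TATA box, 10.8% the CDX element, 32.7% the GC box, 6.75% an AP-1 element and 0.338% at least 2 AP-1 elements. Windows were at hand for 8 of the 10 members, all but Cldn8 and Cldn23, and numbered 12 because some genes have several starts: of these, 9 held the GC box, 2 an AP-1 element, 1 the TATA box and 1 the CDX element. Windows of the same gene can overlap, so that a site may be counted more than once. The GC boxes 13 and 73 bases before 2 of the Cldn12 starts are 1 such site. The motifs were chosen after the expression values were seen, and a match describes letters only.

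Ampicillin was accompanied by changes in both directions among the junction genes. Against vehicle, 3 of the 10 members were higher with ampicillin (Cldn8, Cldn12, Ocln), 3 were lower (Cldn2, Cldn4, Cldn7) and 4 were not called, where 21.3% of all tested genes were called, 11.05% higher and 10.2% lower. The median log2 fold change was 0.09 over the members and 0.02 over all tested genes. Tributyrin against ampicillin gave 3 higher members (Cldn2, Cldn4, Cldn8) and 1 lower (Cldn3), where 23.2% of all tested genes were called, 15.6% higher and 7.54% lower, and the medians were -0.04 and 0.05. The share of higher genes among all calls in that comparison depends on scaling: it was 67.5%, but 47.1% after quantile normalization and 49.8% after median centring. Tributyrin against vehicle gave 3 higher members (Cldn8, Cldn12, Ocln) and 1 lower (Cldn7), where 28.3% of all tested genes were called, 19.1% higher and 9.21% lower. There the medians were -0.03 and 0.08, and the share of higher genes among all calls was 67.5%, or 50.3% and 49.2% under the same other scalings. The 2 groups compared were fully separate for 8, 6 and 5 members in the 3 comparisons, and for 40.8%, 42.6% and 41.7% of all tested genes. The first and second comparisons share the ampicillin libraries, and each shares a group with the third, so they are not independent and their values are given side by side.

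**Figure D1:**
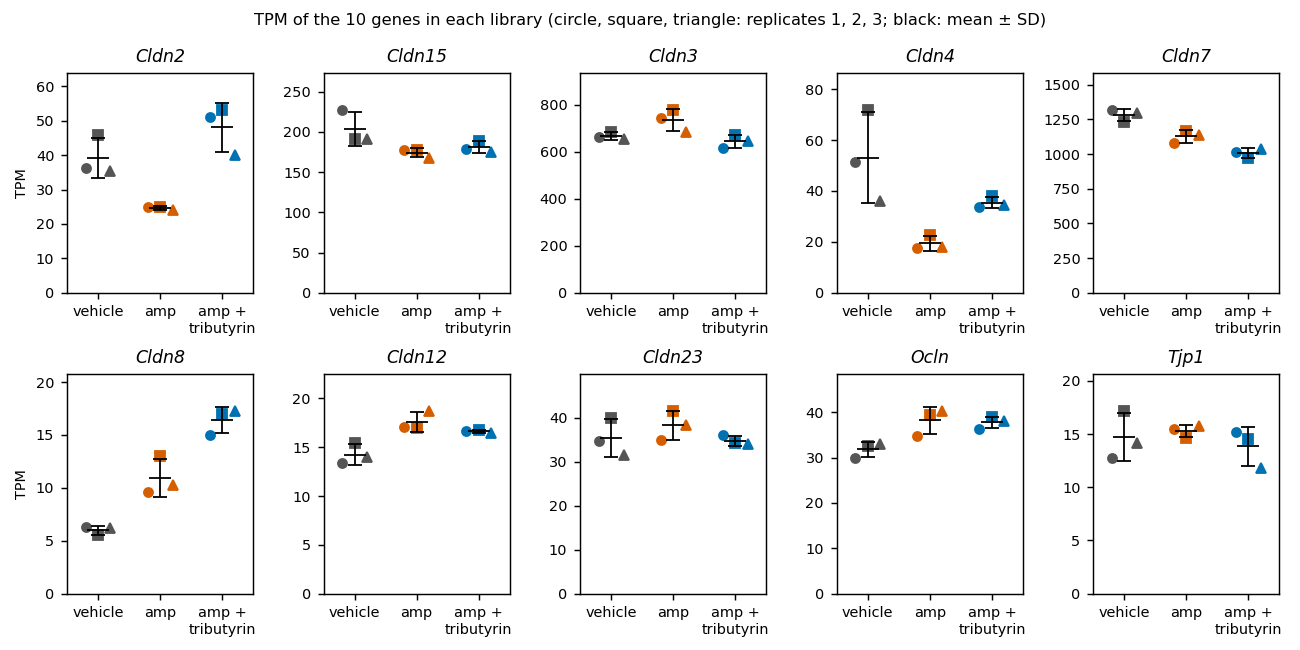
TPM of the 10 members by library, 1 panel a gene with its own axis from 0, in which circles, squares and triangles are replicates 1, 2 and 3 and black marks are the group mean ± SD. Cldn2 and Cldn4 dip in the ampicillin libraries, Cldn8 is lowest in the vehicle and highest in the tributyrin libraries, and Cldn23 and Tjp1 overlap in all 3 groups.

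Cldn2 (gene ID 12738, chromosome X, 139800808 to 139811386) codes for claudin-2, which forms a channel for small cations and water and is the best known claudin of leaky epithelia. Its level was 36.3, 45.7 and 35.3 TPM in the vehicle libraries, 24.9, 24.9 and 24.0 TPM in the ampicillin libraries and 51.0, 53.2 and 40.0 TPM in the tributyrin libraries. Every ampicillin library lay below every vehicle and every tributyrin library, while the vehicle and tributyrin ranges overlapped. Cldn2 fell from 39.1 ± 5.76 TPM (SD, n = 3) in vehicle to 24.6 ± 0.512 TPM in the ampicillin libraries, which is a log2 fold change of -0.64 ± 0.12 (SE; limma, adjusted p = 0.00716). It was 48.1 ± 7.08 TPM with tributyrin, 1.95 times the ampicillin mean and a log2 fold change of 0.93 ± 0.12 (limma, adjusted p = 0.00175). Both calls held under all 19 alternative settings, and without vehicle replicate 2, which was the highest vehicle library, the first was -0.52 (limma, adjusted p = 0.0167). Tributyrin against vehicle was not called, at 0.29 with a 95% interval of 0.01 to 0.57 (limma, adjusted p = 0.112). That difference was called without vehicle replicate 2, at 0.40 (limma, adjusted p = 0.0367), and without tributyrin replicate 3, at 0.41 (limma, adjusted p = 0.0239).

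Cldn15 (gene ID 60363, chromosome 5, 136967869 to 136975845) codes for claudin-15, the other cation channel of the intestine. It stood at 227, 192 and 191 TPM in the vehicle, 177, 178 and 167 TPM in the ampicillin and 179, 189 and 175 TPM in the tributyrin libraries. The vehicle libraries were the highest, without overlap with either other group, and the ampicillin and tributyrin ranges overlapped. No comparison was called: the log2 fold change was -0.22 for ampicillin against vehicle (95% interval -0.38 to -0.05; limma, adjusted p = 0.0655), 0.06 for tributyrin against ampicillin (-0.11 to 0.22; adjusted p = 0.613) and -0.16 for tributyrin against vehicle (-0.33 to 0.00; adjusted p = 0.129). The ampicillin difference was called once short RNA genes were left out of the scaling (limma, adjusted p = 0.0364).

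Cldn4 (gene ID 12740, chromosome 5, 134945123 to 134946934) codes for claudin-4, a claudin that tightens epithelia. Its values were 51.2, 71.9 and 36.1 TPM in the vehicle, 17.4, 22.6 and 18.0 TPM in the ampicillin and 33.7, 38.0 and 34.5 TPM in the tributyrin libraries. All ampicillin libraries lay below all others, and the vehicle libraries were the most spread and overlapped those with tributyrin. With ampicillin Cldn4 fell to 0.365 of its vehicle mean, from 53.1 ± 17.9 to 19.4 ± 2.86 TPM (SD, n = 3), a log2 fold change of -1.36 ± 0.21 and the greatest fall of the 10 members with ampicillin (limma, adjusted p = 0.00268). Without vehicle replicate 2, its highest library, the fall was -1.12 (limma, adjusted p = 0.00335). Tributyrin stood 0.85 ± 0.21 above ampicillin on the log2 scale, at 35.4 ± 2.27 TPM (limma, adjusted p = 0.0235). This call was lost without ampicillin replicate 1 (adjusted p = 0.0777) or 3 (0.0686) and without tributyrin replicate 1 (0.0521) or 2 (0.0802). Tributyrin against vehicle was not called, at -0.52 with a 95% interval of -1.01 to -0.03 (limma, adjusted p = 0.104). It was called without vehicle replicate 3, at -0.76 (limma, adjusted p = 0.0164), and with the replicate number as a block (adjusted p = 0.0441), but without vehicle replicate 2 it was -0.28 (adjusted p = 0.243).

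Cldn8 (gene ID 54420, chromosome 16, 88560826 to 88563183) codes for claudin-8, a barrier claudin of the distal gut and the kidney collecting duct that limits the passage of sodium. It was the member with the steadiest order of groups: 6.28, 5.50 and 6.23 TPM in the vehicle, 9.61, 13.0 and 10.2 TPM in the ampicillin and 15.0, 17.0 and 17.3 TPM in the tributyrin libraries. No library of one group overlapped another group. The means were 6.00 ± 0.434, 10.9 ± 1.81 and 16.4 ± 1.23 TPM (SD, n = 3). Cldn8 rose by 0.76 ± 0.11 on the log2 scale with ampicillin (limma, adjusted p = 0.00165), was higher again by 0.55 ± 0.11 with tributyrin against ampicillin (adjusted p = 0.00885), and was 2.74 times its vehicle mean with tributyrin, at 1.31 ± 0.11 (adjusted p = 0.000181). All 3 calls held under all 19 alternatives. Unlike Cldn2 and Cldn4, its difference with tributyrin had the same sign as its difference with ampicillin.

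Cldn7 (gene ID 53624, chromosome 11, 69964779 to 69967886) codes for claudin-7, which is found along the lateral membrane of gut cells as well as at the junction and binds EpCAM. It was the most abundant member, at 1320, 1235 and 1299 TPM in the vehicle, 1078, 1170 and 1138 TPM in the ampicillin and 1014, 970 and 1040 TPM in the tributyrin libraries. The groups did not overlap in any pair. Cldn7 was lower with tributyrin than with vehicle by a log2 fold change of -0.35 ± 0.05 (limma, adjusted p = 0.00218), a call that held under all 19 alternatives. Ampicillin against vehicle was -0.19 ± 0.05 (limma, adjusted p = 0.0329), and this call was lost under 10 of the 19 alternatives, with adjusted p from 0.0191 to 0.109, among them quantile normalization and median centring. The libraries whose removal ended it were vehicle replicates 1 (0.0989) and 3 (0.0948), ampicillin replicates 1 (0.109), 2 (0.0526) and 3 (0.0772) and tributyrin replicate 1 (0.0542). Tributyrin against ampicillin was just outside the threshold, at -0.16 with a 95% interval of -0.28 to -0.05 (limma, adjusted p = 0.0516), and was called under 6 alternatives, among them those without vehicle replicate 2 (0.0497) and without tributyrin replicate 3 (0.0481).

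Cldn3 (gene ID 12739, chromosome 5, 134986214 to 134987476) codes for claudin-3, a sealing claudin found along much of the intestine. RefSeq places another gene, Wbscr25, over the same stretch, and reads of the pair may have been split between them. It had 660, 683 and 652 TPM in the vehicle, 742, 777 and 685 TPM in the ampicillin and 614, 669 and 647 TPM in the tributyrin libraries. All ampicillin libraries were above the libraries of both other groups, which overlapped. Tributyrin was lower than ampicillin by -0.19 ± 0.06 on the log2 scale (limma, adjusted p = 0.0453). That call was lost under 12 of 19 alternatives (adjusted p 0.0188 to 0.150): removing any of vehicle replicates 1 (0.0615), 2 (0.0527) and 3 (0.0639), ampicillin replicates 1 (0.121) and 2 (0.150) and tributyrin replicates 1 (0.133), 2 (0.0660) and 3 (0.0716) ended it. Ampicillin against vehicle was 0.14 (95% interval 0.01 to 0.27; limma, adjusted p = 0.121) and tributyrin against vehicle -0.05 (-0.18 to 0.08; adjusted p = 0.560), neither of them called.

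Cldn12 (gene ID 64945, chromosome 5, 5505015 to 5514976) codes for claudin-12, a claudin linked to the passage of calcium. It measured 13.3, 15.5 and 14.0 TPM in the vehicle, 17.0, 17.0 and 18.7 TPM in the ampicillin and 16.7, 16.7 and 16.5 TPM in the tributyrin libraries. The vehicle libraries were the lowest, and the ampicillin libraries lay narrowly above those with tributyrin. It rose with ampicillin by 0.29 ± 0.06 on the log2 scale (limma, adjusted p = 0.0140), a call lost without vehicle replicate 3 (0.0507) or ampicillin replicate 3 (0.0527). Tributyrin against vehicle was 0.21 ± 0.06 (limma, adjusted p = 0.0389), and 13 of 19 alternatives lost that call (adjusted p 0.0181 to 0.116), among them all 3 other scalings, the replicate block (0.0532) and the removal of vehicle replicate 1 (0.116) or 3 (0.107), ampicillin replicate 1 (0.0543) or 2 (0.0571), or tributyrin replicate 1 (0.0911), 2 (0.103) or 3 (0.0570). Tributyrin against ampicillin was not called, at -0.07 with a 95% interval of -0.22 to 0.07 (limma, adjusted p = 0.438).

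Cldn23 (gene ID 71908, chromosome 8, 35824709 to 35826559), one of the less studied claudins of the colon, was 34.8, 39.9 and 31.5 TPM in the vehicle, 35.0, 41.6 and 38.3 TPM in the ampicillin and 36.0, 34.2 and 34.0 TPM in the tributyrin libraries. The 3 groups overlapped. None of its differences was called, with 95% intervals of -0.09 to 0.32 for ampicillin against vehicle, -0.34 to 0.07 for tributyrin against ampicillin and -0.23 to 0.19 for tributyrin against vehicle (limma, adjusted p = 0.431, 0.319 and 0.888).

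Ocln (gene ID 18260, chromosome 13, 100496504 to 100552718) codes for occludin, and RefSeq places the uncharacterised gene LOC115488221 over part of it. Its level was 29.8, 32.5 and 33.1 TPM in the vehicle, 34.8, 39.5 and 40.3 TPM in the ampicillin and 36.4, 38.9 and 38.0 TPM in the tributyrin libraries. Vehicle was below both other groups without overlap, and those overlapped each other. Ocln rose by 0.26 ± 0.07 on the log2 scale with ampicillin (limma, adjusted p = 0.0274), a call lost without vehicle replicate 1 (0.0848), ampicillin replicate 2 (0.0975) or ampicillin replicate 3 (0.0958) and when only the 2 groups were fitted (0.0558). Tributyrin against vehicle was 0.24 ± 0.07 (limma, adjusted p = 0.0289), lost without vehicle replicate 1 (0.0879), tributyrin replicate 2 (0.0932) or tributyrin replicate 3 (0.0547) and after median centring (0.0747). Tributyrin against ampicillin was -0.01, with a 95% interval of -0.17 to 0.14 (limma, adjusted p = 0.905).

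Tjp1 (gene ID 21872, chromosome 7, 65296165 to 65527850), which codes for ZO-1, was 12.8, 17.2 and 14.2 TPM in the vehicle, 15.5, 14.7 and 15.8 TPM in the ampicillin and 15.2, 14.6 and 11.8 TPM in the tributyrin libraries. The groups overlapped in every pair. No difference was called, and the 95% intervals ran from -0.21 to 0.33 for ampicillin against vehicle, from -0.41 to 0.12 for tributyrin against ampicillin and from -0.35 to 0.18 for tributyrin against vehicle (limma, adjusted p = 0.771, 0.416 and 0.631).

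**Figure D2:**
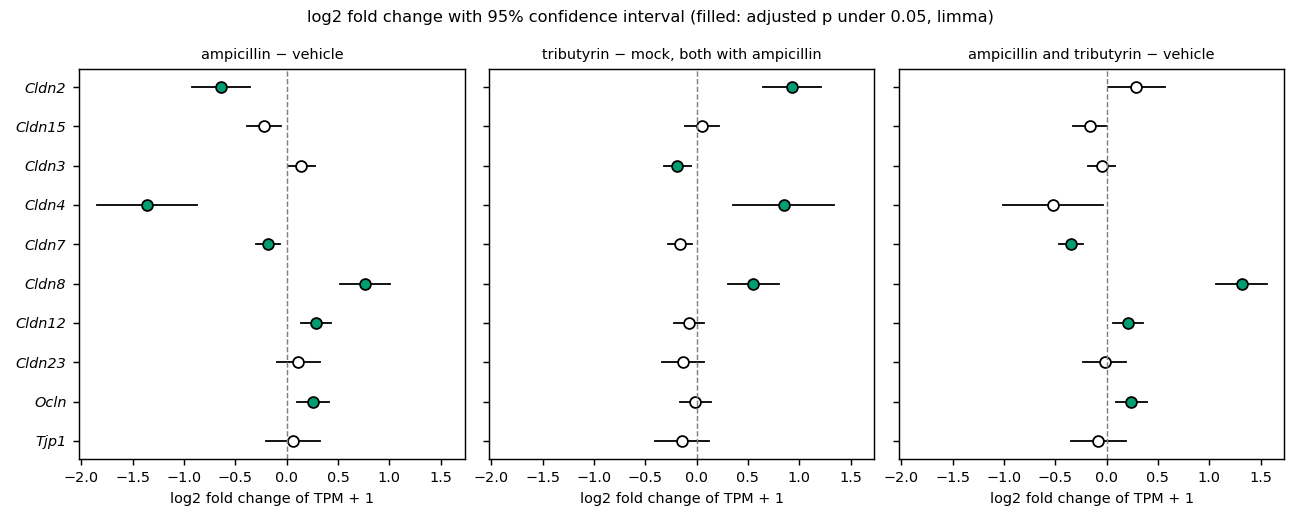
Log2 fold change on the log2(TPM + 1) scale with its 95% interval for the 10 members in the 3 comparisons, with filled points for genes called by limma at an adjusted p under 0.05. Cldn4 has the widest intervals, Cldn2 and Cldn4 are negative for ampicillin and positive for tributyrin against ampicillin, and Cldn8 is positive in all 3 comparisons.

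Set side by side on the TPM scale, Cldn7, Cldn3 and Cldn15 were the highest members in that order in all 3 groups, with no overlap between neighbours. Below them the order changed. In vehicle, Cldn4, Cldn2, Cldn23 and Ocln followed, each overlapping the next, then Tjp1 and Cldn12, which overlapped, and Cldn8 last. With ampicillin, Cldn23 and Ocln overlapped and stood above Cldn2, which stood above the overlapping Cldn4 and Cldn12, then Tjp1 and Cldn8. With tributyrin, Cldn2 came next after Cldn15, above Ocln, Cldn4 and Cldn23. Of these, Cldn4 overlapped both Ocln and Cldn23, which did not overlap each other. Cldn8 was no longer apart from Cldn12 and Tjp1, whose libraries it overlapped. Differences of a few TPM among these low members rest on 3 libraries each.

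As a share of the summed TPM of the 32 genes with a claudin symbol, the 8 claudin members made up 99.9% in every library, to 3 digits. The sum itself was 2303 ± 43.5 TPM in vehicle, 2150 ± 82.9 TPM with ampicillin and 1986 ± 21.4 TPM with tributyrin (SD, n = 3), with no overlap between groups, and was not tested. Cldn7 and Cldn3 together held 83.8% to 86.1%, 86.5% to 86.8% and 82.4% to 84.1% of it. Within the sum, Cldn7 went from 55.8 ± 1.72% in vehicle to 52.5 ± 1.50% with ampicillin and 50.8 ± 1.73% with tributyrin, and Cldn3 from 28.9 ± 0.895% to 34.2 ± 1.41% and 32.4 ± 1.18%. The channel former Cldn2 held 1.70 ± 0.258%, 1.15 ± 0.037% and 2.42 ± 0.373%. Cldn4 held 2.30 ± 0.78%, 0.898 ± 0.0967% and 1.78 ± 0.11%, and Cldn8 held 0.261 ± 0.018%, 0.508 ± 0.0636% and 0.826 ± 0.0535%. The members with the largest fold changes were thus minor shares of claudin transcripts, and 2 abundant claudins made up most of them in every group. Shares of a sum are tied to each other, since one that grows lowers the rest.

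**Figure D3:**
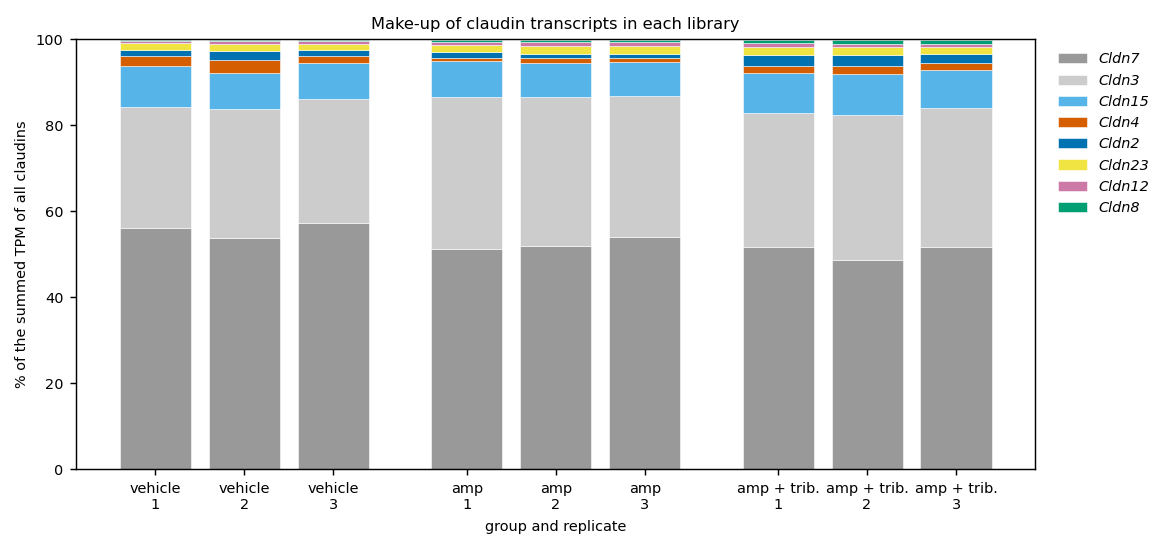
Stacked bars of the share of each claudin member in the summed TPM of all claudins, in percent, 1 bar a library, grouped as vehicle, ampicillin and tributyrin. Cldn7 and Cldn3 fill 82.4% to 86.8% of the bars, the band of Cldn4 is thinnest in the ampicillin libraries and that of Cldn8 is thickest in the tributyrin libraries.

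The other genes of the junctions were taken from lists of other claudins and of membrane, plaque, adherens junction and desmosome proteins, 80 genes in the table of which 54 passed the filter. Of the 18 listed under other claudins, 1 passed, the claudin-domain gene Cldnd1, which is listed by an older symbol and was not called. With ampicillin against vehicle, 3 of the 54 were higher and 9 lower (22.2% called, against 21.3% of all tested genes), at a median log2 fold change of 0.01. Without vehicle replicate 2 the split was 7 higher and 7 lower. Tributyrin against ampicillin gave 8 higher and 3 lower (20.4%, against 23.2% of all tested genes) at a median of -0.04. Both shares lay near those of all tested genes. The second split turned to 7 higher and 11 lower after quantile normalization and to 7 higher and 12 lower after median centring. Tributyrin against vehicle gave 9 higher and 12 lower (38.9%, against 28.3% of all tested genes) at a median of -0.03. That split was 2 higher and 7 lower without tributyrin replicate 1, 1 and 8 without tributyrin replicate 2, 3 and 10 without vehicle replicate 1, 7 and 7 without vehicle replicate 2, 3 and 7 without vehicle replicate 3, and 3 and 9 when only the 2 groups were fitted, and quantile normalization gave 7 and 15. The lists were drawn up with earlier results of these libraries known, so their counts are a description.

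Among the other membrane proteins of the tight junction, 10 of 14 passed the filter, with 2 higher and 4 lower with ampicillin, 2 higher and none lower with tributyrin against ampicillin, and 1 higher and 3 lower with tributyrin against vehicle. Lsr, which recruits tricellulin to the corners where cells meet, had 59.7, 57.7 and 56.4 TPM in vehicle, 40.0, 42.7 and 40.4 TPM with ampicillin and 49.5, 49.7 and 43.3 TPM with tributyrin. The 3 groups did not overlap. It fell with ampicillin by 0.49 ± 0.06 on the log2 scale (limma, adjusted p = 0.000955), which held under all 19 alternatives, whereas its call with tributyrin against ampicillin, 0.20 ± 0.06 (adjusted p = 0.0442), was lost under 12 of them, among them 8 of the 9 that leave out a library (all but tributyrin replicate 3), with adjusted p up to 0.143. Its relative Ildr1, which acts at the same corners, rose with ampicillin from 159 ± 8.50 to 197 ± 5.35 TPM (SD, n = 3; 0.31 ± 0.06; adjusted p = 0.00555). Marveld2, tricellulin itself, was at 21.6 ± 0.672, 22.3 ± 1.56 and 21.1 ± 0.179 TPM and was not called in any comparison. F11r, the adhesion molecule JAM-A, fell with ampicillin from 126 ± 5.62 to 102 ± 5.67 TPM (-0.31 ± 0.06; adjusted p = 0.00649), and Igsf5, also an adhesion molecule of the junction, rose from 38.1 ± 1.03 to 47.6 ± 3.49 TPM (0.31 ± 0.06; adjusted p = 0.00568). These calls of Ildr1, F11r and Igsf5 held under all 19 alternatives. Marveld3, a relative of occludin, was at 54.3 ± 2.69, 48.3 ± 0.193 and 44.2 ± 1.04 TPM. Its fall with ampicillin (-0.17 ± 0.05; adjusted p = 0.0364) was lost under 9 alternatives, among them those without vehicle replicate 2 or 3, any 1 ampicillin library or tributyrin replicate 1 or 2 (adjusted p up to 0.123). Against vehicle, tributyrin was lower for Marveld3 (-0.29 ± 0.05; adjusted p = 0.00317), F11r (-0.29 ± 0.06; 0.00775) and Lsr (-0.28 ± 0.06; 0.0115) and higher for Ildr1 (0.25 ± 0.06; 0.0118), each under all 19 alternatives.

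Esam, an adhesion molecule best known from endothelium, was low throughout: 1.51 ± 0.196 TPM in vehicle, 0.763 ± 0.107 TPM with ampicillin and 1.88 ± 0.331 TPM with tributyrin (SD, n = 3). It was called lower with ampicillin (-0.51 ± 0.12; limma, adjusted p = 0.0159) and higher with tributyrin against ampicillin (0.70 ± 0.12; adjusted p = 0.00435). The first of these calls was lost without vehicle replicate 3 (0.0631), ampicillin replicate 1 (0.0587) or ampicillin replicate 3 (0.0552). A list of 6 endothelial markers summed to 5.10 to 6.01, 1.92 to 2.06 and 4.58 to 5.83 TPM in the 3 groups, so its sum had the same order as Esam with ampicillin. Most of that sum came from Pecam1 (3.79, 0.586 and 1.38 TPM on average) and Egfl7 (1.43, 1.08 and 3.29 TPM), which were called in opposite directions for tributyrin against vehicle, at -1.01 and 0.83 on the log2 scale (adjusted p = 0.000495 and 0.00461). Vwf was present in every library at 0.251 to 0.560 TPM, with means of 0.320, 0.292 and 0.482 TPM, and Cdh5, Kdr and Tek did not pass 0.0376 TPM in any. The part of such cells in the values of Esam was not tested.

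Of the plaque and polarity proteins, 21 of 25 passed the filter, and 1 was higher and 2 lower with ampicillin, 2 higher and 2 lower with tributyrin against ampicillin, and 4 higher and 4 lower with tributyrin against vehicle. That is 14.3%, 19.0% and 38.1% called, against 21.3%, 23.2% and 28.3% of all tested genes. Rab13, a small GTPase that carries junction proteins to the membrane, was at 11.8 ± 0.606, 8.98 ± 0.640 and 12.3 ± 1.07 TPM in vehicle, ampicillin and tributyrin (SD, n = 3). Its fall with ampicillin (-0.36 ± 0.08; limma, adjusted p = 0.0117) and its higher level with tributyrin (0.42 ± 0.08; adjusted p = 0.00694) held under all 19 alternatives, in the same directions as Cldn2. Ybx3, a transcription factor that ZO-1 binds, was higher with tributyrin than with ampicillin (324 ± 25.4 against 255 ± 15.1 TPM; 0.34 ± 0.07; adjusted p = 0.00846) under all alternatives. Tjp3, which codes for ZO-3, was lower with tributyrin than with ampicillin (-0.22 ± 0.06; adjusted p = 0.0295), a call lost under 6 alternatives, 5 of them without ampicillin replicate 1 or 2 or any 1 tributyrin library (adjusted p up to 0.104).

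In the plaque and polarity list, Tjp3 (-0.22 ± 0.06; limma, adjusted p = 0.0226) and Mylk (-0.23 ± 0.07; 0.0325) were also called lower with tributyrin than with vehicle. Of the other calls given below, that of Arhgef2 held under all 19 alternatives and the others were lost without at least 1 library. Cgn, which codes for the junction protein cingulin, was higher with ampicillin (0.19 ± 0.05; limma, adjusted p = 0.0287), lost without vehicle replicate 1 or 3 or ampicillin replicate 2 or 3 (adjusted p up to 0.0997). Mylk, the myosin light chain kinase whose activity opens junctions, was lower with ampicillin (-0.25 ± 0.07; adjusted p = 0.0304), lost without any 1 vehicle library or ampicillin replicate 1 or 3 (up to 0.102). Patj, a polarity scaffold, was lower with tributyrin than with ampicillin (-0.21 ± 0.05; adjusted p = 0.0138), lost only without ampicillin replicate 2 (0.0594). Against vehicle, tributyrin was lower for Arhgef2, an activator of the GTPase RhoA, from 17.7 ± 1.87 to 13.6 ± 0.512 TPM (SD, n = 3; -0.35 ± 0.07; adjusted p = 0.0102), a call that held under all 19 alternatives. Tributyrin was higher than vehicle for the scaffold gene Magi1 (0.41 ± 0.10; adjusted p = 0.0164; lost without vehicle replicate 1 or tributyrin replicate 1 or 2, up to 0.0617). It was also higher for the kinase gene Wnk4 (0.30 ± 0.08; adjusted p = 0.0272; lost under 5 alternatives, up to 0.0924, 4 of them without vehicle replicate 2 or 3 or tributyrin replicate 1 or 2). The paired polarity genes Pard6a (0.24 ± 0.07; adjusted p = 0.0324) and Pard6b (-0.26 ± 0.08; adjusted p = 0.0441) were called in opposite directions, but lost those calls under 10 alternatives (up to 0.159) and 12 alternatives (up to 0.114), each among others without vehicle replicate 1 or 2, ampicillin replicate 2 or tributyrin replicate 1 or 2. For Pard6b the removal of vehicle replicate 3, ampicillin replicate 1 or tributyrin replicate 3 also ended the call. Ybx3 was higher than in vehicle by 0.24 ± 0.07 (adjusted p = 0.0304), lost under 8 alternatives (up to 0.108), among them those without any 1 vehicle library, ampicillin replicate 2 or tributyrin replicate 1 or 2.

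In the adherens junction list, 13 of 14 genes passed the filter, and none was higher and 2 were lower with ampicillin, 2 higher and none lower with tributyrin against ampicillin, and 3 higher and 3 lower with tributyrin against vehicle. The shares called were 15.4%, 15.4% and 46.2%, against 21.3%, 23.2% and 28.3% of all tested genes. Epcam, whose protein binds claudin-7 and stabilises it in the gut, was at 1350, 1445 and 1377 TPM in vehicle, 1135, 1193 and 1202 TPM with ampicillin and 1191, 1194 and 1265 TPM with tributyrin. Vehicle libraries lay above all others, the order seen for Cldn7 with ampicillin. Epcam fell with ampicillin by 0.24 ± 0.05 on the log2 scale (limma, adjusted p = 0.00907), a call that held under all alternatives. Cdh1, which codes for E-cadherin, was higher with tributyrin than with ampicillin (318 ± 10.8 against 254 ± 5.55 TPM, SD, n = 3; 0.32 ± 0.06; adjusted p = 0.00665), and so was its partner Ctnnb1, which codes for beta-catenin (492 ± 18.6 against 411 ± 7.96 TPM; 0.26 ± 0.05; adjusted p = 0.00747). Both held under all 19 alternatives. Ctnna1, which codes for alpha-catenin, went the other way, at -0.17 ± 0.07 against ampicillin, which was not called (adjusted p = 0.0992). Against vehicle, tributyrin was called lower for Ctnna1 (-0.23 ± 0.07; adjusted p = 0.0320) and Epcam (-0.19 ± 0.05; 0.0205). Plekha7, which anchors microtubules at the adherens junction, fell with ampicillin from 23.1 ± 1.73 to 17.9 ± 0.389 TPM (-0.35 ± 0.06; adjusted p = 0.00570) under all alternatives, and was lower with tributyrin than with vehicle (-0.27 ± 0.06; adjusted p = 0.0157), lost only without vehicle replicate 3 (0.0543). Cdh1 (0.24 ± 0.06; adjusted p = 0.0187), Vcl, which codes for vinculin (0.39 ± 0.11; 0.0295), and Nectin1 (0.36 ± 0.10; 0.0299) were higher with tributyrin than with vehicle. These calls were lost without vehicle replicate 1 or 3 or tributyrin replicate 2 for Cdh1 (up to 0.0680), without those or tributyrin replicate 1 for Vcl (up to 0.0932), and without vehicle replicate 2 or 3 or tributyrin replicate 1 or 2 for Nectin1 (up to 0.0950).

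All 9 desmosome genes passed the filter, with 1 lower with ampicillin, 2 higher and 1 lower with tributyrin against ampicillin, and 1 higher and 2 lower with tributyrin against vehicle. Calls thus made up 11.1%, 33.3% and 33.3%, against 21.3%, 23.2% and 28.3% of all tested genes. Evpl, which codes for envoplakin, a link between desmosomes and keratin filaments, was at 13.1, 16.5 and 14.3 TPM in vehicle, 6.90, 8.15 and 7.39 TPM with ampicillin and 9.53, 10.9 and 11.3 TPM with tributyrin. The groups did not overlap, and like Cldn2 and Cldn4 the ampicillin libraries were the lowest. Evpl fell by 0.88 ± 0.10 on the log2 scale with ampicillin (limma, adjusted p = 0.000467). It was higher by 0.45 ± 0.10 with tributyrin against ampicillin (adjusted p = 0.0130), a call that was lost only without tributyrin replicate 2 (0.0501). Pkp3, a plakophilin of the desmosomal plaque, was lower with tributyrin, at 69.2 ± 1.29 TPM against 88.2 ± 1.03 TPM with ampicillin (SD, n = 3; -0.34 ± 0.04; adjusted p = 0.00158), under all alternatives. Ppl, which codes for periplakin, the partner of envoplakin, was at 2.58 ± 0.390, 2.58 ± 0.232 and 3.61 ± 0.166 TPM. It was higher with tributyrin than with ampicillin (0.37 ± 0.10; adjusted p = 0.0268), lost without any 1 ampicillin library or tributyrin replicate 1 or 2 and after quantile normalization (up to 0.0935). Against vehicle, tributyrin was higher for Ppl (0.37 ± 0.10; adjusted p = 0.0227; lost without vehicle replicate 1 or 3 or tributyrin replicate 1 or 2, up to 0.0711) and lower for Evpl (-0.43 ± 0.10; 0.0127) and Pkp3 (-0.24 ± 0.04; 0.00534), both under all 19 alternatives.

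**Figure D4:**
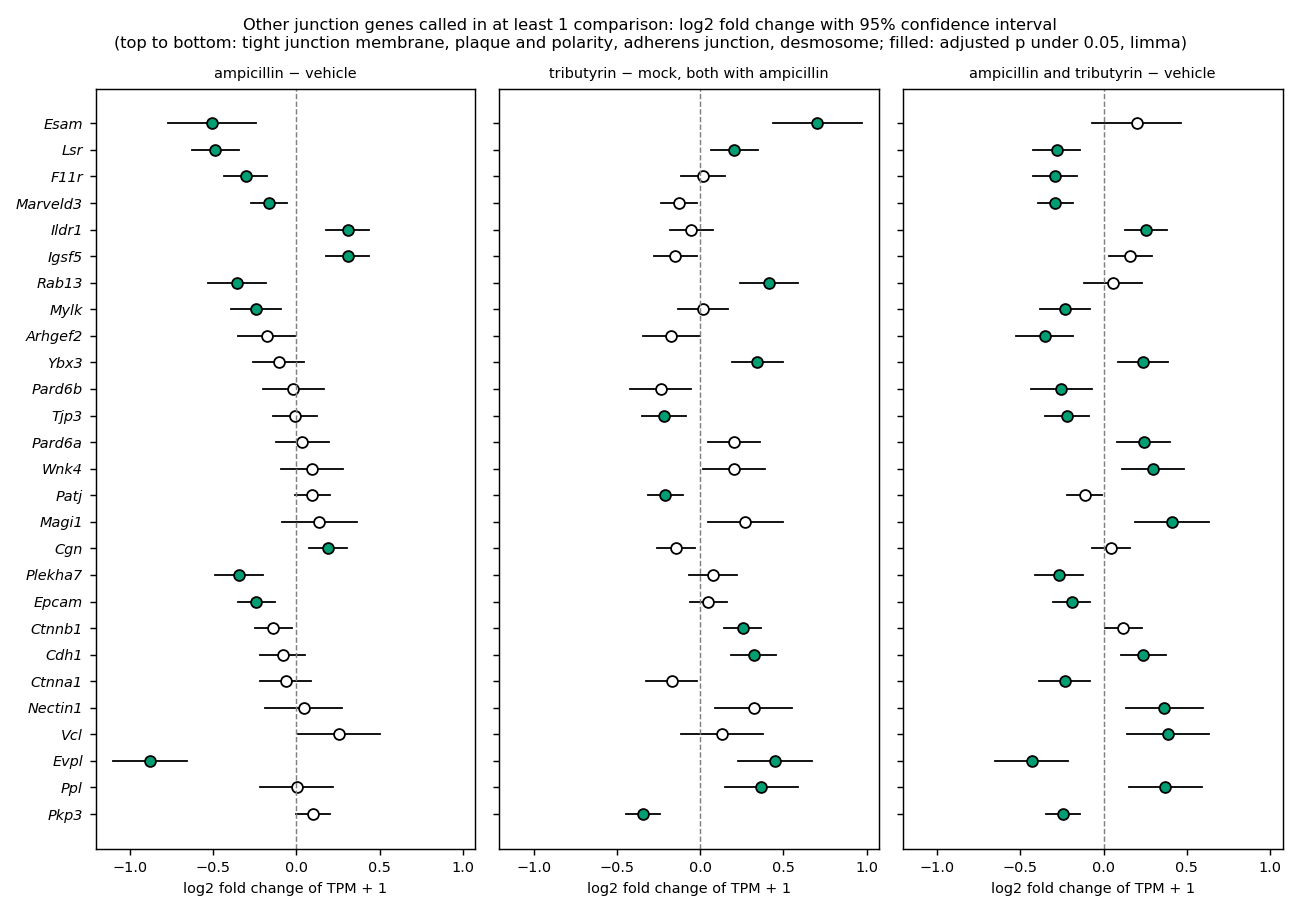
Log2 fold change on the log2(TPM + 1) scale with its 95% interval for genes of the other junction lists called in at least 1 of the 3 comparisons, ordered as membrane, plaque and polarity, adherens junction and desmosome genes, with filled points for calls by limma. Evpl, Esam, Lsr and Rab13 are negative for ampicillin against vehicle and positive for tributyrin against ampicillin.

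For the 4 members that differed most over the 3 groups, the tested genes with the most similar pattern were listed. Predicted and unnamed genes were left out before the ranking. The measure was Pearson's r of log2(TPM + 1) over the 9 libraries, as a description, since the groups alone can give high values of r. Cldn8 was followed by the chemokine receptor Cxcr4 (r = 0.983), Ccdc122 (0.981) and Acaa2 (0.981), an enzyme of mitochondrial fatty acid oxidation. Acaa2 was at 228 ± 6.35, 266 ± 5.41 and 304 ± 10.5 TPM in vehicle, ampicillin and tributyrin (SD, n = 3), and Cxcr4 stayed below 2 TPM in its group means. Cldn2 was nearest to Tmem266 (0.983), Galnt3 (0.978), which starts the O-linked glycans of mucins, and Enpp1 (0.974). Galnt3 was at 17.6 ± 1.09, 15.5 ± 0.276 and 18.9 ± 0.721 TPM. Cldn7 was nearest to Espn (0.984), which codes for the actin bundler espin, the ceramidase gene Acer1 (0.982) and Arf5 (0.976). Acer1 was at 54.6 ± 2.96, 44.0 ± 2.43 and 36.3 ± 1.14 TPM. Cldn4 was nearest to the kinase gene Hunk (0.988), Sema4b (0.977) and Ckap4 (0.976), and Ckap4 was at 5.63 ± 0.880, 2.94 ± 0.0682 and 4.76 ± 0.295 TPM.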

How the data were processed

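RNA of caecal epithelial cells, freed with DTT and EDTA and then Dispase per the labels' protocols, was measured in 9 libraries made with NEBNext Ultra II kits. The 7 chromatin and input samples were not analysed here. The authors deposited TPM values for 24091 genes, which sum to 999833 to 999866 in each library and keep no depth. The submitters' processing notes name Salmon 0.8.2, DESeq2 1.20.0 and mm10, with no role or order, and further steps are not stated in those sources. Groups came from sample titles. Genes with a mean TPM of at least 1 over the 9 libraries were tested with limma 3.58.1 (R 4.3.3) on log2(TPM + 1), with 1 mean per group, a variance trend, 6 residual degrees of freedom and Benjamini-Hochberg adjustment over all 12155 tested genes, two-sided. Figures and summaries used Python 3.11.15. The fit was tested on simulated data, and 19 alternatives were run, listed with the processing effects.

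Same-numbered libraries deviated together weakly at most (correlations -0.05 to 0.11, against -0.12 to 0.07 for other pairs), and no pairing was used. The members, gene lists and motifs were chosen with earlier results of these data known. Named genes were all members, up to 6 called genes of each other tight junction list and up to 4 of each adherens junction or desmosome list by size of fold change in each comparison. To these were added Marveld2 and Ctnna1, named after their values were seen, and the 3 genes most like each of the 4 members with the highest F. Predicted and unnamed genes were left out of the search for like genes. The planned protein stretches were not used here. In the table, 24045 gene IDs matched RefSeq.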

Additional observations from a re-analysis of the deposited data

How the results depend on the processing

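No called difference changed sign in the 19 alternatives: pseudocount, filters, scalings, fits and leaving out each library. Member calls numbered 6, 4 and 4 (ampicillin against vehicle, tributyrin against ampicillin, tributyrin against vehicle). Without 1 library they ranged from 3 (without ampicillin replicate 3) to 6, from 2 (without ampicillin replicate 1 or tributyrin replicate 1 or 2) to 4 and from 2 (without vehicle replicate 1 or tributyrin replicate 2) to 5, and median centring left 2 in the third comparison. Calls among the other junction genes numbered 12, 11 and 21, with ranges of 8 to 14, 7 to 13 and 9 to 22 without 1 library. The 11 became 18 after quantile normalization, 19 after median centring and 22 with array weights, and the 21 became 12 when only the 2 groups compared were fitted. Calls over all tested genes numbered 2587, 2819 and 3444, with ranges of 1747 to 2785, 1574 to 2962 and 2061 to 3766 without 1 library, and the 2819 became 4271 with array weights. The causes were not tested. Replicate numbers are only shared labels: with the replicate block, member calls stayed at 6, 4 and 4, other junction calls were 13, 12 and 24 and calls over all genes 2707, 3009 and 3569. TPM keep no depth, so counting error is not known for any value.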

Other observations

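Most claudins outside the members were near 0 in these cells. Cldn16, Cldn18 and Cldn34a were listed at 0 in all 9 libraries, and Cldn1 did not pass 0.09 TPM. Cldn5, known from endothelium, was at 0.40, 0.19 and 0.33 TPM in vehicle, 0, 0.03 and 0 TPM with ampicillin and 0.06, 0.02 and 0.03 TPM with tributyrin, with no overlap between vehicle and either other group. It did not pass the filter on low values. In the fit with no such filter it was lower with ampicillin than with vehicle by a log2 fold change of -0.37 (limma, adjusted p = 0.00346) and lower with tributyrin than with vehicle by -0.33 (adjusted p = 0.00541). Cldn10 was at 0.12, 0.14 and 0.05 TPM in vehicle, 0.14, 0.31 and 0.08 TPM with ampicillin and 0.56, 0.49 and 0.21 TPM with tributyrin. These genes were picked out after their values were seen, and at such levels a few reads can move a value.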
